A study of Mus musculus with 6 samples.

Results

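The genes described here are 9 genes of the RAS and ERK signalling route: the RAS GTPase genes Nras and Hras, the RAS regulators Nf1, Rasa1 and Ptpn11, and the feedback genes Dusp6, Spry1, Spry2 and Spred1. Each was read from the probe set with the highest mean among those annotated to that symbol alone, which gave 8 measured genes out of 22180 named genes on the array; Hras was not analysed here. All 8 passed the filter on dim genes and were among the 15526 genes tested. The cells were c-Kit+ leukemic cells sorted from mouse spleens at the end stage of disease, 3 samples from Chd7f/f, Mx1-Cre, Cbfb+/56M mice and 3 from Mx1-Cre, Cbfb+/56M mice, called Chd7f/f and control leukemias. Mx1-Cre is a recombinase under an interferon-responsive promoter that pIpC switches on in blood cells and in other tissues, Cbfb+/56M carries the fusion gene that the chromosome inversion of a human acute myeloid leukemia makes, as 1 allele that recombination activates, and Chd7 encodes a chromatin remodelling ATPase, floxed on both alleles. Mice of both genotypes carried Mx1-Cre and Cbfb+/56M and received pIpC and the mutagen ENU, so that the floxed Chd7 alleles are what sets the genotypes apart; the ages of the mice are not given in the labels. Levels are RMA values on the log2 scale from 1 Affymetrix array per sample, and differences are Chd7f/f minus control on that scale. With 3 arrays for each genotype, this small number sets how precise a value can be.

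RAS proteins are GTPases of the inner plasma membrane that relay signals from receptors such as Kit. Exchange factors load them with GTP, GTPase-activating proteins (GAPs) such as neurofibromin return them to the GDP state, and GTP-bound RAS starts the RAF, MEK and ERK kinase cascade. ERK activity induces genes whose products damp the same route, among them the phosphatase gene Dusp6 and the Sprouty and Spred genes, and their transcripts are widely used as a readout of pathway output. Activating lesions of receptor and RAS pathway genes are common partners of the CBFB-MYH11 fusion in human leukemia. The arrays measured transcript levels only, so neither mutations nor GTP loading nor phosphorylation of ERK was read.

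Medians of the 6 arrays lay between 4.72 and 4.84. The receptor gene Kit, whose product was used for sorting, was at 12.48, 11.69 and 11.90 in Chd7f/f and 11.72, 12.12 and 11.68 in control leukemias (difference 0.19, SE 0.24). Chd7 was at 5.48, 6.50 and 5.91 in Chd7f/f and at 6.17, 7.54 and 5.32 in control leukemias (difference -0.38, SE 0.58), and since the sources used here do not give where its probes lie, this level does not check the deletion. Of 7 measured T or NK cell genes 3 passed the filter on dim genes, as did 3 of 6 B cell genes and 2 of 4 megakaryocyte or platelet genes. It was passed by 6 of 7 mast cell or basophil, 4 of 4 erythroid and 6 of 8 neutrophil genes. All 10 monocyte or macrophage genes and all 8 stroma or endothelium genes passed as well. Over all named genes 15526 of 22180 passed, so passing does not show that a cell type was present. The mean level of 8 myeloid progenitor genes was 7.34 to 8.41 in Chd7f/f and 7.05 to 7.98 in control leukemias, and that of 8 neutrophil genes was 4.58 to 5.62 in Chd7f/f and 4.42 to 5.0 in control leukemias. For 10 monocyte or macrophage genes the mean level was 5.86 to 6.91 in Chd7f/f and 5.38 to 6.16 in control leukemias. Of these genes 9 were higher and 1 lower in Chd7f/f leukemias (median difference 0.69), where 43.7% of all tested genes were higher. A fold of at least 1.5 was reached by 6 of them, against 4.87% of tested genes, and 1 was without overlap, against 6.81%. The cause was not tested. The mean level of 4 megakaryocyte or platelet genes was 5.85 to 6.33 in Chd7f/f and 6.35 to 6.91 in control leukemias. These ranges nearly met, and of the 2 tested genes of the list 0 were without overlap. The highest mean was that of control replicate 1, where Gp9 was at 10.81, against 6.41 to 7.71 on the other arrays. The mean level of 8 stroma or endothelium genes was 5.54 to 5.90 in Chd7f/f and 5.11 to 5.95 in control leukemias. Single arrays stood apart within their genotype. Relative to each gene's own average, 18 replication and mitosis genes had a mean of -1.56 in Chd7f/f replicate 1, the other 5 means being between -0.062 and 0.49. The 4 measured erythroid genes, of 8 listed, had a mean of 1.09 in control replicate 1, where the 5 other arrays had -0.98 to 0.49. Control replicate 2 had the female pattern, with Xist at 10.08 there and at most 3.88 elsewhere. The control samples thus came from more than 1 mouse. Whether each sample came from its own mouse is not stated by the labels, so the p-values refer to sample-to-sample spread alone, of which an unknown part may be technical.

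None of the 8 genes differed between Chd7f/f and control leukemias beyond the spread between samples. By limma, 0 of 15526 genes passed an adjusted p of 0.05 (0%), 286 genes had an unadjusted p under 0.05 (1.84%), and 121 of these also had a fold of at least 1.5 (0.779%); 0 of the 8 genes were among either. The smallest unadjusted limma p among them was 0.140, for Dusp6, and the adjusted p was 0.9998 for each. The values of the genotypes overlapped for all 8 genes, while 6.81% of tested genes had no overlap. A fold of at least 1.5 without a test was reached by 2 of the 8 genes, Dusp6 and Spry1, both lower in Chd7f/f leukemias, and by 4.87% of tested genes (2.05% higher and 2.81% lower). Of the 8 genes 5 were above 0 and 3 below, with a median difference of 0.029, against 43.7% above 0 and a median of -0.027 over all tested genes. With 3 arrays in each genotype, 0.1 is the smallest p that the exact permutation test (two-sided) allows. In such bulk samples fewer cells of a type and less RNA per cell cannot be told apart.

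**Figure D1:**
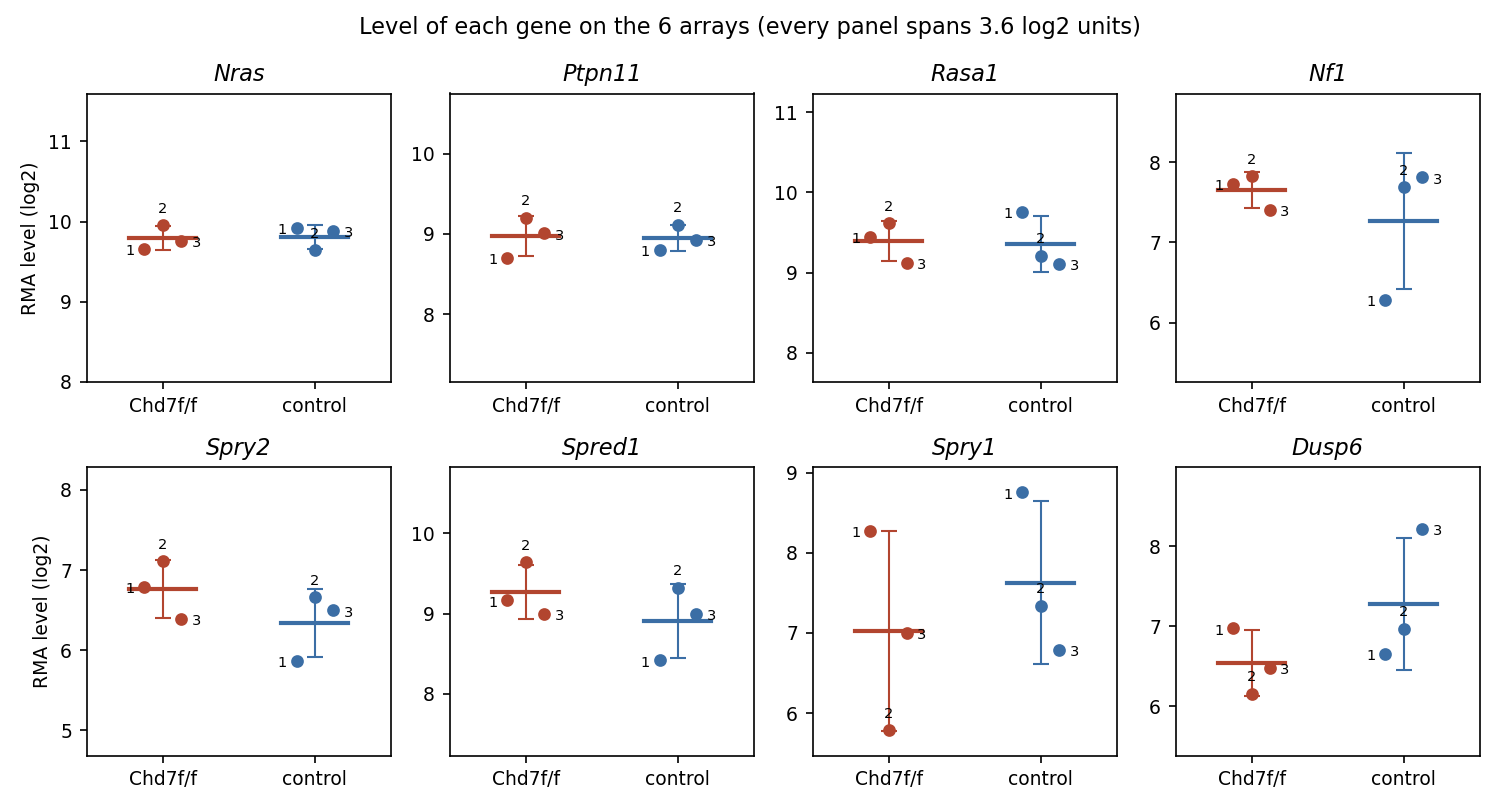
RMA level (log2 axis values) of the 8 measured genes in Chd7f/f (left, red) and control (right, blue) leukemias; points are arrays numbered by replicate, thick bars are means and error bars are SD (n = 3 each). The genotypes overlap in every panel, and control replicate 1 lies lowest for Nf1, Spry2 and Spred1 and highest for Spry1.

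Nras, which encodes a RAS GTPase often mutated in myeloid leukemia, had nearly the same level on every array. It was at 9.66, 9.96 and 9.76 in Chd7f/f leukemias, against 9.92, 9.64 and 9.88 in control leukemias. The highest and the next to highest value came from different genotypes, and the whole range over the 6 arrays was 0.32, where the median range of all tested genes was 0.57. Chd7f/f leukemias averaged 9.79 ± 0.15 and controls 9.81 ± 0.15 (SD, n = 3 each), which differ by -0.020 (SE 0.14) with a 95% interval from -0.36 to 0.32. Its sign depended on single arrays: the difference was 0.047 without Chd7f/f replicate 1, 0.032 without control replicate 1 and 0.013 without control replicate 3.

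Ptpn11 encodes the phosphatase SHP2, which acts between receptors and RAS and promotes RAS activation. It was at 8.70, 9.20 and 9.01 in Chd7f/f leukemias, against 8.80, 9.12 and 8.92 in control leukemias. Both genotypes covered the same narrow band, with Chd7f/f replicates 1 and 2 at its ends. The difference was 0.022 (SE 0.17), with a 95% interval from -0.39 to 0.43, and leaving out Chd7f/f replicate 2 turned it to -0.093, leaving out control replicate 1 to -0.050.

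Of the GAP genes, Rasa1, which encodes p120 RasGAP, was at 9.45, 9.62 and 9.12 in Chd7f/f leukemias, against 9.76, 9.21 and 9.11 in control leukemias. The highest and the lowest array were both control arrays. The difference was 0.037 (SE 0.22; 95% interval -0.50 to 0.58), and it lay between -0.087 without control replicate 3 and 0.24 without control replicate 1. Nf1, which encodes the GAP neurofibromin, a tumour suppressor of myeloid cells, was at 7.73, 7.83 and 7.40 in Chd7f/f leukemias, against 6.29, 7.69 and 7.81 in control leukemias. One array, control replicate 1, was low, and the other 5 lay within a band that both genotypes shared. Chd7f/f leukemias averaged 7.65 ± 0.22 and controls 7.26 ± 0.85 (SD, n = 3 each), which differ by 0.39 (SE 0.42; 95% interval -0.62 to 1.40; exact permutation p = 0.60). Without control replicate 1 the difference was -0.097, and with array weights, which count an array less the farther it lies from the fit, it was 0.040.

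Dusp6, the phosphatase that removes the activating phosphates from ERK in the cytoplasm, had the largest difference of the 8 genes. It was at 6.98, 6.16 and 6.48 in Chd7f/f leukemias, against 6.65, 6.97 and 8.21 in control leukemias. Control replicate 3 was high for Dusp6, and Chd7f/f replicate 1 lay above both of the other control arrays. Chd7f/f leukemias averaged 6.54 ± 0.41 and controls 7.28 ± 0.82 (SD, n = 3 each), which differ by -0.74 (SE 0.44; 95% interval -1.80 to 0.32), or 1.67-fold lower in Chd7f/f leukemias. The limma adjusted p was 0.9998 and the exact two-sided permutation p was 0.30. The difference was -0.27 without control replicate 3 and -1.13 with array weights. A second probe set annotated to Dusp6 lay between 3.0 and 3.37 on all arrays, below the filter level of 4.13, and the mean of both probe sets gave -0.32. Control replicate 3 also had the lowest mean level of 10 monocyte or macrophage genes, which was 5.86 to 6.91 in Chd7f/f leukemias, against 5.76, 6.16 and 5.38 in control replicates 1 to 3. That array was lowest as well for the myeloid progenitor list, at 7.05, and the stroma or endothelium list, at 5.11. The part of any of these cells in the difference was not tested.

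The Sprouty genes encode membrane-associated inhibitors of signalling from receptor tyrosine kinases to ERK. Spry1 varied most of the 8 genes: it was at 8.28, 5.79 and 7.0 in Chd7f/f leukemias, against 8.75, 7.34 and 6.79 in control leukemias. Each genotype had 1 array above 8, and the values interleaved. The SD over the 6 arrays was 1.07, at percentile 97.8 of tested genes. Chd7f/f leukemias averaged 7.02 ± 1.24 and controls 7.63 ± 1.01 (SD, n = 3 each), which differ by -0.61 (SE 0.75; 95% interval -2.43 to 1.21; exact permutation p = 0.50). Leaving out Chd7f/f replicate 2 gave a difference of 0.0087, leaving out Chd7f/f replicate 1 gave -1.24, and leaving out control replicate 1 gave -0.046.

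Spry2, the other Sprouty gene of the set, was at 6.79, 7.11 and 6.39 in Chd7f/f leukemias, against 5.86, 6.66 and 6.50 in control leukemias. Control replicate 1 was the lowest array and Chd7f/f replicate 2 the highest, and Chd7f/f replicate 3 lay below control replicates 2 and 3. Chd7f/f leukemias averaged 6.76 ± 0.36 and controls 6.34 ± 0.42 (SD, n = 3 each), which differ by 0.42 (SE 0.27; 95% interval -0.25 to 1.09; exact permutation p = 0.30). It was 0.25 without Chd7f/f replicate 2, and 0.18 when control replicate 1 was left out.

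Spred1 encodes a Sprouty-related protein that binds neurofibromin and brings it to RAS at the membrane. It was at 9.17, 9.64 and 8.99 in Chd7f/f leukemias, against 8.41, 9.32 and 8.99 in control leukemias. As for Spry2, control replicate 1 was the lowest and Chd7f/f replicate 2 the highest array, whereas the second highest was control replicate 2 for Spred1 and Chd7f/f replicate 1 for Spry2. Chd7f/f leukemias averaged 9.27 ± 0.34 and controls 8.91 ± 0.46 (SD, n = 3 each), which differ by 0.36 (SE 0.28; 95% interval -0.33 to 1.04; exact permutation p = 0.40). Leaving out Chd7f/f replicate 2 gave 0.17, leaving out control replicate 2 gave 0.56, and leaving out control replicate 1 gave 0.11.

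The sequences before the starts of 4 of these genes are shown because Spry2, Spred1 and Nf1 shared their lowest and highest arrays and Spry1 had the same arrays in reverse. They are the 250 bases before the annotated start in RefSeq (GRCm38.p6), on the strand of the gene, and all 8 measured genes matched by symbol. The stretch shown for Spry2 is chr14:105896820-105897069 on the minus strand, and that for Spred1 is chr2:117120821-117121070 on the plus strand. The stretch for Nf1 is chr11:79339642-79339891 on the plus strand, and that for Spry1 is chr3:37639697-37639946 on the plus strand. Capitals mark matches on either strand to a RUNX motif (TGNGGT), the site of the core-binding factor that Cbfb is part of, an ETS motif (CCGGAA), a cAMP response element (TGACGTCA) or an AP-1 motif (TGANTCA), the ETS and AP-1 families being nuclear targets of ERK.
Spry2: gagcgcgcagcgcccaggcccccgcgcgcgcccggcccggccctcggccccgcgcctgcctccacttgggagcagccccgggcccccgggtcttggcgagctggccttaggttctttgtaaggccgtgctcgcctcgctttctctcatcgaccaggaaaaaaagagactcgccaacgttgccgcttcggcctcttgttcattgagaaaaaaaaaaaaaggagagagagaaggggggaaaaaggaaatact
Spred1: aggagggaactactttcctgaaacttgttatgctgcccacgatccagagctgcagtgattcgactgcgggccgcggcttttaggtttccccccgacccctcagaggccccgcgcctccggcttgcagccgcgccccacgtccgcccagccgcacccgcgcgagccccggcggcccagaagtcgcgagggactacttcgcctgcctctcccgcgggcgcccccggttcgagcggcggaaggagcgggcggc
Nf1: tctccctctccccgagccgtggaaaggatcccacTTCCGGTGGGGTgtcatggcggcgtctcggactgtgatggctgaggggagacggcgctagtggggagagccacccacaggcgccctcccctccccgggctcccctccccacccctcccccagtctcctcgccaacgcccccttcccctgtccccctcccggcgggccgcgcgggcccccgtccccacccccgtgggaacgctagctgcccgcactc
Spry1: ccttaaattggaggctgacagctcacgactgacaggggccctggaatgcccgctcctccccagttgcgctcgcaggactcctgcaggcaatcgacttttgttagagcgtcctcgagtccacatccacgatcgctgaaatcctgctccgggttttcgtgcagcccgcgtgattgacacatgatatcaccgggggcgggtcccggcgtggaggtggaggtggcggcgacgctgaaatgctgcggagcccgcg

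Only the Nf1 window of these 4 held a match, where an ETS and a RUNX match lie side by side with no base in common, starting 216 and 210 bases before the start. Over all 32851 promoter windows of the same length, 40.1% held the RUNX letters, 12% the ETS letters, 6.75% the AP-1 letters and 1.55% the cAMP response element. Dusp6 held none of the 4 motifs, Nras held 1 RUNX match, Rasa1 held 1 RUNX and 1 ETS match, and Ptpn11 held 1 ETS match and 1 cAMP response element. A match is a run of letters and not a bound site, and its absence concerns this window alone.

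**Figure D2:**
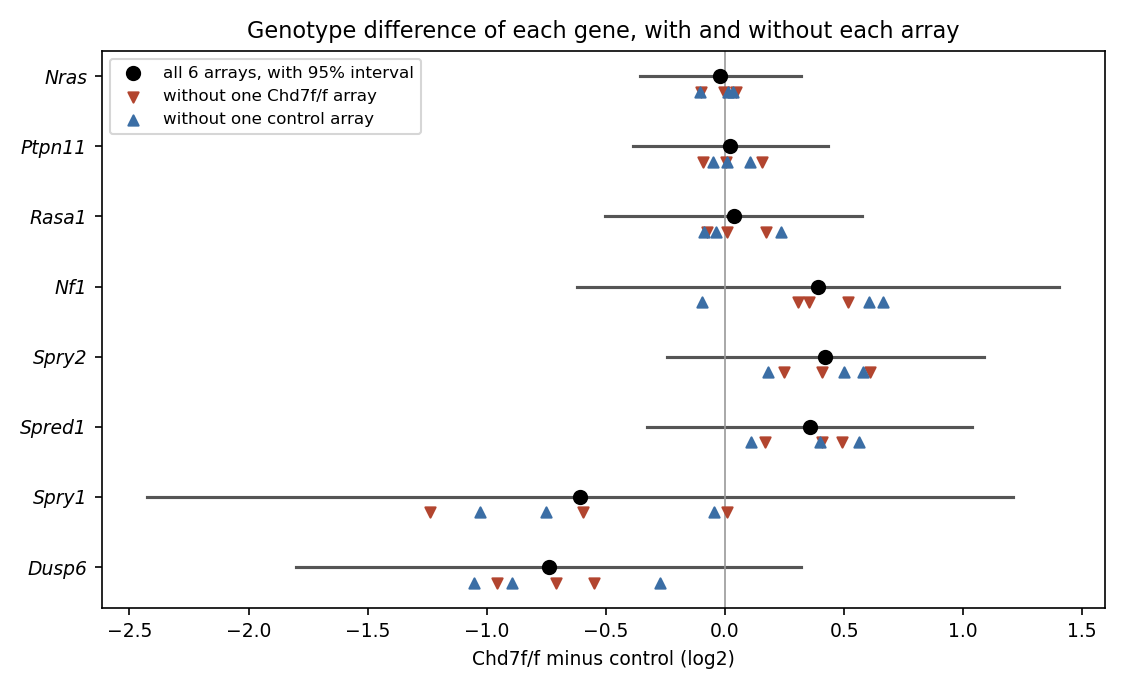
Chd7f/f minus control (log2) for each of the 8 genes: black points use all 6 arrays with their 95% interval from limma, and triangles leave out 1 Chd7f/f array (red, pointing down) or 1 control array (blue, pointing up). Every interval spans 0; Dusp6 stays below 0 and Spry2 and Spred1 stay above 0 without any single array, while the other 5 genes cross 0.

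The 4 feedback genes thus did not share a direction: Dusp6 and Spry1 were lower and Spry2 and Spred1 higher in Chd7f/f leukemias, none past the test. The range of each over the 6 arrays lay between 1.23 for Spred1 and 2.97 for Spry1. Of the 8 genes 5 had a range of at least 1 over the 6 arrays, Nf1, Dusp6, Spry1, Spry2 and Spred1, against 22.3% of tested genes. The median SD over arrays was 0.41 for the 8 genes and 0.21 for all tested genes. Nras (SD 0.14), Ptpn11 (SD 0.19) and Rasa1 (SD 0.27) varied least of the 8, at percentiles 22, 41.6 and 64.3 of the SD among tested genes.

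**Figure D3:**
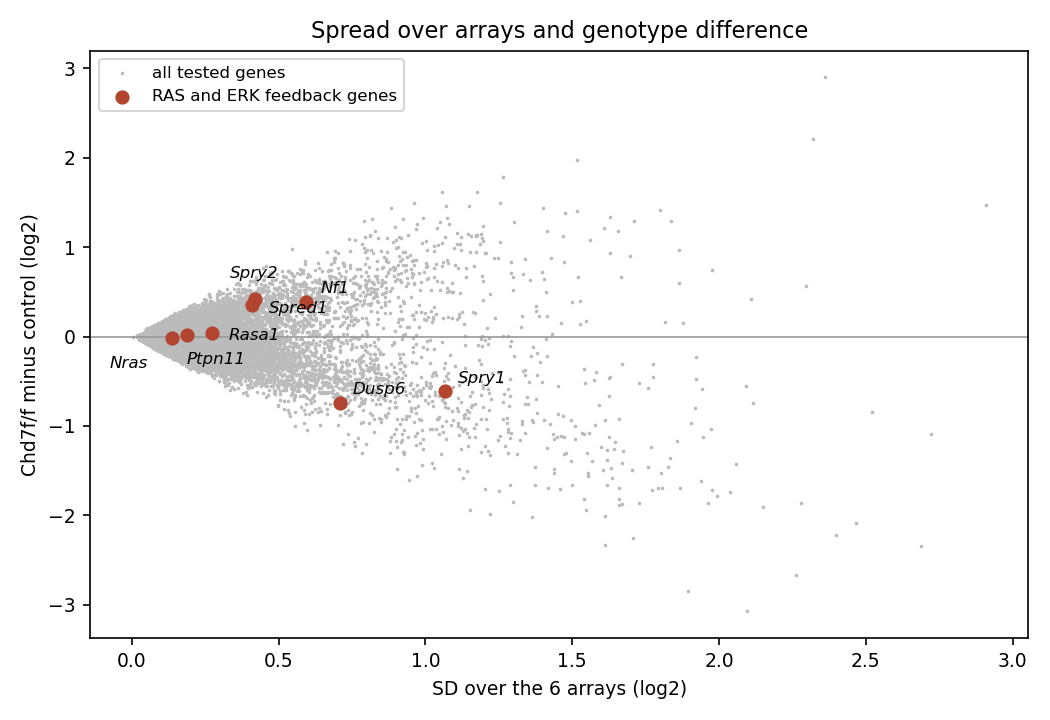
SD over the 6 arrays (log2, horizontal) against Chd7f/f minus control (log2, vertical) for all 15526 tested genes (grey) and the 8 RAS and ERK feedback genes (red). Nras, Ptpn11 and Rasa1 have the smallest SDs of the 8, that of Rasa1 at percentile 64.3 of tested genes, and Spry1 has the largest SD of the 8 at 1.07 with a difference of -0.61.

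Spry2, Spred1 and Nf1 shared their lowest array, control replicate 1, and their highest, Chd7f/f replicate 2. That pair of extremes was found in 3 of the 8 genes and in 4.17% of tested genes. Spry1 had the same arrays in reverse, with control replicate 1 highest and Chd7f/f replicate 2 lowest, as had 5.0% of tested genes. Control replicate 1 was the lowest array for 16.4% and the highest for 24.4% of tested genes, and Chd7f/f replicate 2 the lowest for 17.9% and the highest for 17.6%. Chd7f/f replicate 1 was at an extreme more often, lowest for 27.7% and highest for 18.7% of tested genes. The mast cell or basophil list also had its lowest mean in control replicate 1, though only 3 of its 7 measured genes were lowest there. Their mean level was between 9.12 and 9.71 in Chd7f/f leukemias, against 8.80, 9.47 and 9.55 in control replicates 1 to 3. The neutrophil list had its lowest mean, 4.42, in control replicate 1 too, with 5 of its 8 genes lowest there. The 4 measured erythroid genes had their highest mean in control replicate 1. It was 8.43 to 9.90 in Chd7f/f leukemias, against 10.5, 8.88 and 9.35 in control replicates 1 to 3. The part of these cells in the result was not tested.

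For each of these 5 variable genes, the tested genes with the most similar profile were found by the root mean square difference between profiles centred on their own mean over the 6 arrays. Spred1 was the gene second nearest to Spry2 among 15525 others, at 0.089, and Spry2 was likewise second nearest to Spred1. The genes nearest to Spry2 were Frrs1 (0.089), Spred1 and Usp12 (0.097), a deubiquitinase gene, and those nearest to Spred1 were Ankrd9 (0.084), Spry2 and Vps26a (0.10), a retromer subunit gene. Nf1 was nearest to Prickle1 (0.090), Rufy3 (0.10) and Wsb2 (0.11), and had Spry2 at rank 173 and Spred1 at rank 221. The profile of Spry1 was nearest to Dpp4 (0.19), the dipeptidyl peptidase CD26, followed by Gm11110 (0.35) and Fam214a (0.37). The profile of Dusp6 was nearest to Bex3 (0.14), Ninl (0.18) and the homeobox gene Hoxb4 (0.19), and no other of the 8 genes came before rank 6317 for it. These likenesses rest on 6 arrays and are the smallest of many, so they are given as a description.

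**Figure D4:**
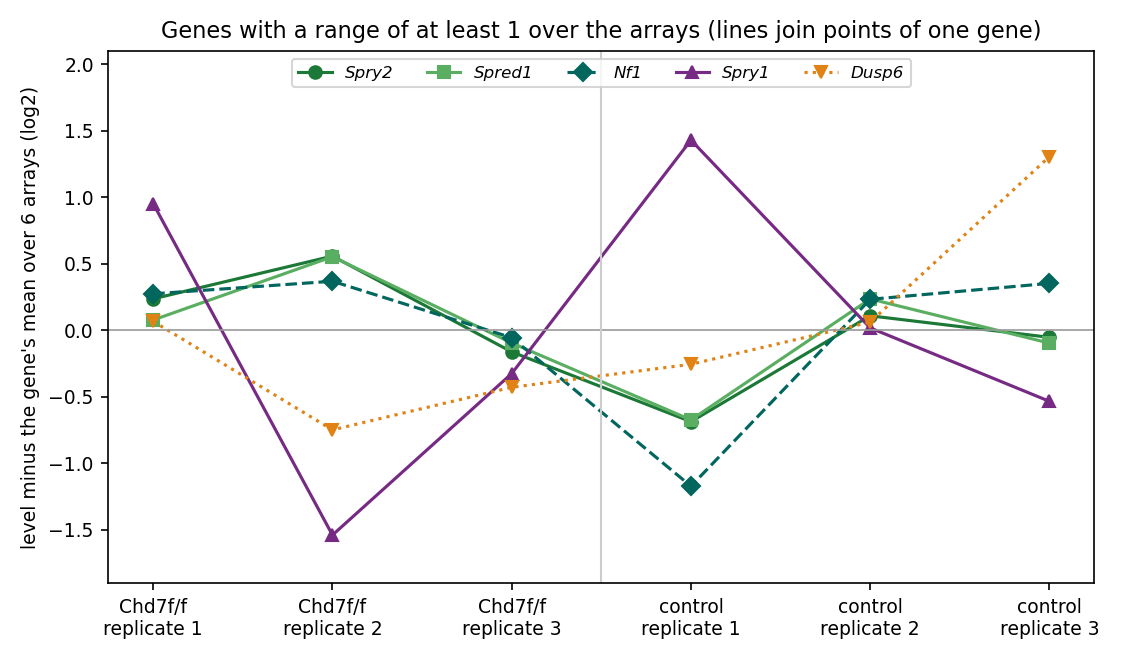
Level minus the gene's own mean over the 6 arrays (log2) for the 5 genes with a range of at least 1; lines join the points of 1 gene and carry no order of time. Spry2 and Spred1 overlie each other with their minimum in control replicate 1, Nf1 shares that minimum, Spry1 has its maximum there, and Dusp6 peaks in control replicate 3.

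Other genes of the route were read from lists by role, and again 0 passed an adjusted p of 0.05 by limma. Over all tested genes, for comparison with each list, 43.7% were higher in Chd7f/f leukemias and 1.84% had an unadjusted limma p under 0.05. Of 10 tested RAS family GTPase genes 6 were higher in Chd7f/f leukemias and 4 were lower, with a median of 0.020, and 2 had an unadjusted p under 0.05. Without single arrays the median ran from -0.19, with 4 higher and 6 lower without Chd7f/f replicate 2, to 0.11 without control replicate 2. Ralb, a Ral GTPase that RAS reaches through its own exchange factors, was at 5.94, 5.95 and 6.63 in Chd7f/f leukemias, against 8.14, 7.75 and 6.50 in control leukemias. Chd7f/f replicate 3 and control replicate 3 overlapped, and the difference of -1.29 (SE 0.45) was the largest of the lists, or -0.67 for the mean of its probe sets and -0.75 with array weights. Rap2a, a Rap GTPase, was at 6.10, 6.44 and 6.08 in Chd7f/f leukemias, against 6.79, 6.77 and 7.02 in control leukemias. It had no overlap, and its difference of -0.65 (SE 0.15; limma adjusted p = 0.9998; exact permutation p = 0.10) was between -0.77 and -0.57 without each array in turn. Rras and Rap2b differed by 0.47 and 0.40, or by 0.078 and 0.026 without control replicate 1, and Rap2b by 0.62 without control replicate 3. Rras2, named after its values were seen, was at 5.92, 10.64 and 5.82 in Chd7f/f leukemias, against 6.08, 8.20 and 7.65 in control leukemias; its range of values was set by Chd7f/f replicate 2, without which its difference was -1.44 in place of 0.15.

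Among exchange factors and adaptors, 10 of 12 tested genes were higher and 2 lower, where 43.7% of all tested genes were higher. The median of the list was 0.23, and 0 had an unadjusted p under 0.05. Without control replicate 1 the counts were 8 and 4 and the median was 0.065. The mean level of the 15 measured genes of this list was 7.65, 7.66 and 7.56 in Chd7f/f leukemias, against 7.15, 7.70 and 7.53 in control leukemias, so control replicate 1 was the low array here too. Sos1, the RAS exchange factor that Grb2 brings to receptors, was at 8.46, 8.53 and 8.26 in Chd7f/f leukemias, against 8.20, 8.04 and 8.13 in control leukemias. All 3 Chd7f/f values lay above the control values, and the difference was 0.30 (SE 0.12; limma adjusted p = 0.9998; exact permutation p = 0.10). Rasgrp2, an exchange factor for Rap GTPases, differed by 1.11 (SE 0.65), or by 0.42 without control replicate 1, where it was at 5.54. Shoc2, a scaffold that helps RAF activation, differed by 0.23, or by 0.064 with array weights. Rasgrp1, a diacylglycerol-responsive RAS exchange factor, differed by -0.65 at levels between 3.83 and 5.50, which may lie near background, and by -0.26 without control replicate 2. Gab1, an adaptor that binds SHP2 and was named after its values were seen, was at 8.12, 9.56 and 8.49 in Chd7f/f leukemias, against 6.57, 9.01 and 9.03 in control leukemias, with the lowest and highest arrays of Spry2 and Spred1; its difference was 0.52, or -0.30 without control replicate 1.

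Of the other GAPs and negative regulators, 4 of 11 tested genes were higher and 7 lower, with a median of -0.058 (-0.095 to 0.0077 without single arrays) and 1 at an unadjusted p under 0.05. That gene, the RAS GAP gene Rasa4, differed by -0.31 (SE 0.12; limma adjusted p = 0.9998; exact permutation p = 0.10), with no overlap at levels between 4.82 and 5.25, near the arrays' median. The ubiquitin ligase genes Cblb and Cbl, which target activated receptors, differed by 0.57 and -0.29, and Rasal1, another RAS GAP gene, by -0.14 (-0.031 without Chd7f/f replicate 1). Chd7f/f replicate 1 had Cblb at 9.13, where the other arrays had 7.45 to 8.02, and the difference was 0.16 without it. The difference of Cbl was -0.14 without control replicate 1 and -0.44 without control replicate 2. In the RAF, MEK and ERK cascade 5 of 8 tested genes were higher and 3 lower, between -0.16 and 0.18, and 0 had an unadjusted p under 0.05. Their median was 0.041, and it ran from -0.042 without Chd7f/f replicate 2 to 0.17 without control replicate 3. The largest of these were Braf (0.18), the ERK scaffold gene Lamtor3 (0.18, or 0.020 without control replicate 1) and the ERK-activated kinase gene Rps6ka3 (-0.16), with Araf at -0.062; Braf was at -0.0084 and Araf at 0.0048 with array weights. Leaving out Chd7f/f replicate 1 gave -0.28 for Rps6ka3 and 0.054 for Braf, and leaving out Chd7f/f replicate 2 gave -0.080 for Rps6ka3.

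Further feedback and output genes of ERK also lay on both sides of 0. Of 23 tested genes 8 were higher and 15 lower, with a median of -0.075 (6 higher and 17 lower without control replicate 1, 11 higher and 12 lower without control replicate 2), and 1 had an unadjusted p under 0.05. Dusp4, a nuclear phosphatase of ERK, was at 4.66, 4.69 and 4.57 in Chd7f/f leukemias, against 5.24, 5.0 and 4.84 in control leukemias. The genotypes did not overlap, the difference was -0.39 (SE 0.14; limma adjusted p = 0.9998; exact permutation p = 0.10), and all values lay near the arrays' median. Dusp5, another nuclear ERK phosphatase, had no overlap in the opposite direction, with a difference of 0.19 (SE 0.12). The early growth response gene Egr2 differed by -0.42, or by -0.65 without control replicate 3, and Pea15a, which holds ERK in the cytoplasm, by 0.65, or by 0.40 without control replicate 1 and 0.99 without control replicate 3. Phlda1, named after its values were seen, was at 7.08, 8.32 and 8.16 in Chd7f/f leukemias, against 6.01, 8.83 and 7.88 in control leukemias. Its lowest array was control replicate 1, and its difference of 0.28 was -0.50 without that array. Control replicate 1 was the lowest array for 6 of the 24 measured genes of this list, where it was lowest for 16.4% of all tested genes. It was the highest array for others, among them Dusp4, Egr1 and Egr2, as for 24.4% of all tested genes. The mean level of the 24 genes was not low there: 6.74, 6.82 and 6.76 in Chd7f/f leukemias, against 6.85, 6.87 and 6.78 in control leukemias.

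**Figure D5:**
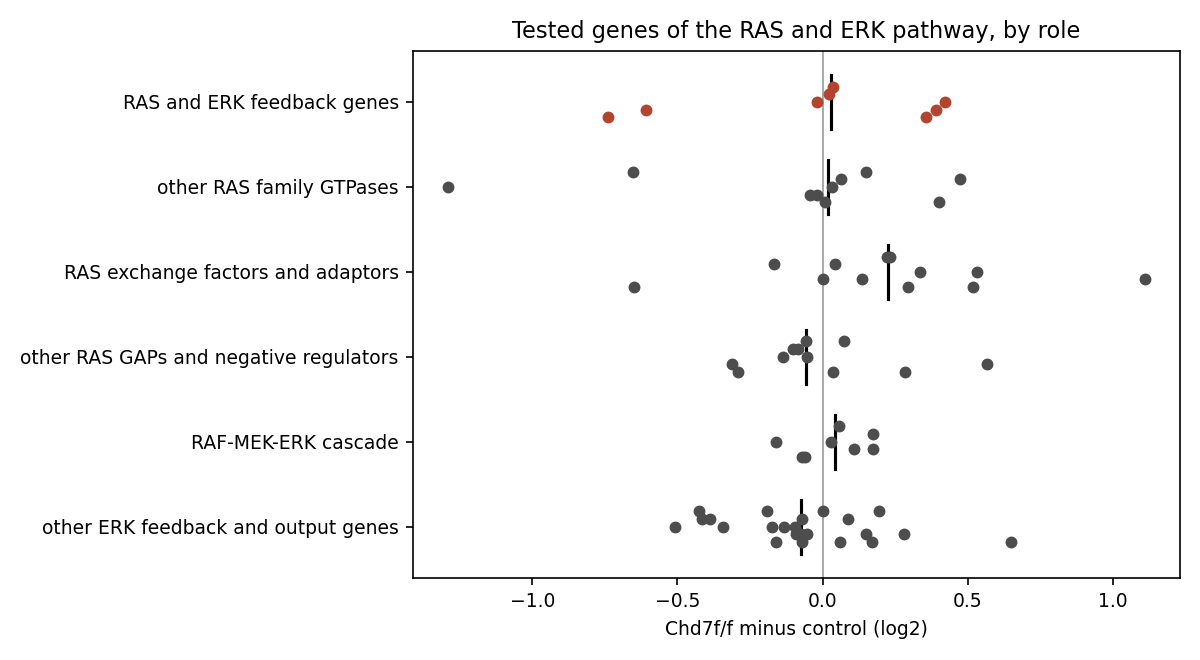
Chd7f/f minus control (log2) for each tested gene of the RAS and ERK route, 1 point per gene grouped by role, with vertical bars at the medians. The medians lie between -0.075 and 0.23, the RAF, MEK and ERK cascade is the narrowest group, and Ralb is the point at -1.29.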

How the data were processed

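The arrays measured total RNA of 6 samples, 3 Chd7f/f and 3 control, grouped by the titles. The authors deposited 1 log2 value per probe set and array, 41345 in all with 0 missing; per the submitters' processing notes these are RMA values from Expression Console, whose version and settings no source used here gives. RMA equalises the distributions of the arrays. Per the design text the array was the mouse Gene 2.0 ST, whereas the labelling protocol names a human one of that generation; the deposited probe sets carry mouse genes.

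Genes were assigned to probe sets by the platform annotation, updated by Entrez identifier in RefSeq (GRCm38.p6, 21994 of 22180 genes): 23521 had 1 symbol, 1814 several and 16010 none listed. Per gene the probe set with the highest mean was used, and genes at or above the 30th percentile of mean level, 4.13, were tested by limma (lmFit and eBayes, no covariate; limma 3.58.1, R 4.3.3), with Benjamini-Hochberg adjustment over all 15526. Of these steps the limma fit alone was tested on simulated data, with changes larger than the differences of the genes named here. Named from each role list were the 4 tested genes with the smallest p, and for genes with a range of at least 1 the 3 with the nearest profile; Rras2, Gab1 and Phlda1 were added after their values were seen. The genes and lists were chosen with earlier results of these data known. Alternatives were other normalizations, filters, probe set rules, priors, a block on the replicate number, array weights, and fits without each array or, added after seeing the data, without both arrays numbered 1; the counts of the role lists without single arrays were added likewise.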

Additional observations from a re-analysis of the deposited data

How the results depend on the processing

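No gene passed an adjusted p of 0.05 under any alternative, or of 0.1 in the reported fit (limma; 159 to 571 genes at an unadjusted p under 0.05), and none of the 120 values of the 8 genes in 15 alternatives did (lowest adjusted p 0.989). The median difference over the 8 genes was between -0.032 and 0.10 without single arrays and between 0.028 and 0.091 otherwise. Dusp6 was lower and Spry2 and Spred1 higher in every alternative, and 12 of the 120 values changed sign. The difference of Nras ran from -0.11 to 0.047, of Nf1 from -0.097 to 0.66, of Ptpn11 from -0.093 to 0.16, of Rasa1 from -0.087 to 0.24, of Spry1 from -1.24 to 0.0087, of Kit from -0.041 to 0.36, of Chd7 from -0.89 to 0.22, of Araf from -0.16 to 0.026, of Rras2 from -1.44 to 0.97, of Gab1 from -0.30 to 0.93 and of Phlda1 from -0.50 to 0.91 without single arrays. With both arrays numbered 1 left out, Nras was at 0.0996, Nf1 at -0.14, Rasal1 at 0.018, Braf at -0.026, Araf at 0.047, Kit at -0.10, Gab1 at -0.00052 and Phlda1 at -0.11. With array weights Braf was at -0.0084, Araf at 0.0048 and Rras2 at -0.54. The cause was not tested.

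Genes at an unadjusted p under 0.05 that also had a 1.5-fold difference numbered 121, 186 with array weights and 128 to 283 without single arrays (183 without Chd7f/f replicate 3, 202 without control replicate 3, 283 without control replicate 2). Genes without overlap numbered 1058 in all, 1717 with no filter, 589 at the 50th percentile, 2136 to 2855 without single arrays and 4432 with both arrays numbered 1 left out, where fewer arrays or another number of genes enter by construction. The replicate numbers gave no sign of pairing. Deviations from the group means correlated at 0.027, -0.025 and 0.034 for equal numbers, and between -0.099 and 0.089 for unequal numbers. With 3 arrays in each genotype this cannot exclude a pairing of the samples. With the number as a block the first count was 171, again 0 genes passed an adjusted p of 0.05, and the differences of the 8 genes and their median, 0.029, were unchanged. The deposited values carry no signal over background, so how far background limits the dim genes was not measured.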
